A study of Mus musculus with 11 samples.

Results

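Cyclic GMP is a second messenger that is made by guanylyl cyclases, broken down by phosphodiesterases and sensed by the cGMP-dependent protein kinases PKG1 and PKG2. Soluble guanylyl cyclase is a heterodimer that answers to nitric oxide, whereas the receptor guanylyl cyclases are membrane proteins that are switched on by peptides such as natriuretic peptides and guanylins. In the intestine and the growth plate PKG2, encoded by *Prkg2*, is known as the membrane-bound kinase of this pathway, and PKG1, encoded by *Prkg1*, is the main kinase of smooth muscle. The 10 genes described here are *Prkg2* and *Prkg1*, the soluble cyclase subunits *Gucy1a1* and *Gucy1b1*, the receptor cyclases *Gucy2c*, *Npr1* and *Npr2*, and the phosphodiesterases *Pde5a*, *Pde1c* and *Pde9a*. They were picked by name and found by their Ensembl gene IDs among the 19329 gene IDs of the expression table, and 10 of 10 were listed. *Prkg2* was picked because it differed between the genotypes in these libraries, so its difference is described without a test, while the others were picked for their place in the pathway.

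The libraries were made in bulk from the RNA of whole islets of male mice, 14 weeks of age. There were 5 libraries from mice homozygous for PDX1P33T, a CRISPR-Cas9 exchange of a proline for a threonine in the transactivation domain of the transcription factor PDX1, and 6 libraries from wild-type mice, which carry no edited allele. Both groups were on the C57BL/6N strain and untreated, and per the methods isolated islets were kept in culture for 24 to 48 hours. The methods speak of wild-type littermates and also of breeding by homozygous intercrosses, and the labels give no litter, so genotype and litter cannot be told apart. Per a figure legend, each biological replicate was collected from several individual mice, so n, SD and p refer to libraries and not to mice. Wild-type libraries held 19311937 to 37094286 counted reads and PDX1P33T libraries 23731684 to 36865206. Levels are given as FPKM, reads scaled to the length of the gene and the depth of the library, so they can be compared between genes.

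The tissue label matched the markers of islet cells in the PDX1P33T libraries. *Ins2*, one of the mouse insulin genes, had 152900 ± 19890 FPKM (SD, n = 5), the glucagon gene *Gcg* had 10620 ± 1335 FPKM (SD, n = 5) and the somatostatin gene *Sst* had 5720 ± 775.4 FPKM (SD, n = 5). Cells of vessels were present as well, with the endothelial cadherin gene *Cdh5* at 16.35 ± 5.493 FPKM (SD, n = 5). *Pdx1* itself had 79.02 ± 0.8812 FPKM (SD, n = 5) in PDX1P33T, and the edited base cannot be read from expression values. In bulk RNA, fewer cells of a type and less RNA per cell cannot be told apart. Most wild-type values stood on the rows of other genes in the deposited table. Wild-type levels are therefore given only where the row of the gene could be identified, which was the case for 4 of the 10 genes, and for *Npr2* and *Pde5a* the candidate rows are given.

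*Prkg2* was about 4 times as high in PDX1P33T as in wild-type islets and stayed a low-level transcript in both. In PDX1P33T it had 0.4572 FPKM in replicate 1, 0.4003 in replicate 2, 0.5428 in replicate 3, 0.4462 in replicate 4 and 0.4294 in replicate 5. In wild-type it had 0.03197 FPKM in replicate 1, 0.09265 in replicate 2, 0.1447 in replicate 3, 0.1808 in replicate 4, 0.1104 in replicate 5 and 0.09084 in replicate 6. All 5 PDX1P33T libraries lay above all 6 wild-type libraries, and the lowest PDX1P33T level was 2.21 times the highest wild-type level. The mean was 0.4552 ± 0.05348 FPKM (SD, n = 5) in PDX1P33T against 0.1086 ± 0.05091 FPKM (SD, n = 6) in wild-type, and the former was 4.19 times the latter. On the log2(FPKM + 0.1) scale the difference was 1.45 (SE 0.18), and since the pseudocount is as large as the wild-type mean this scale understates the change. Without wild-type replicate 1, the lowest library, the ratio of means was 3.67, and without wild-type replicate 4, the highest, it was 4.84.

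**Figure D1:**
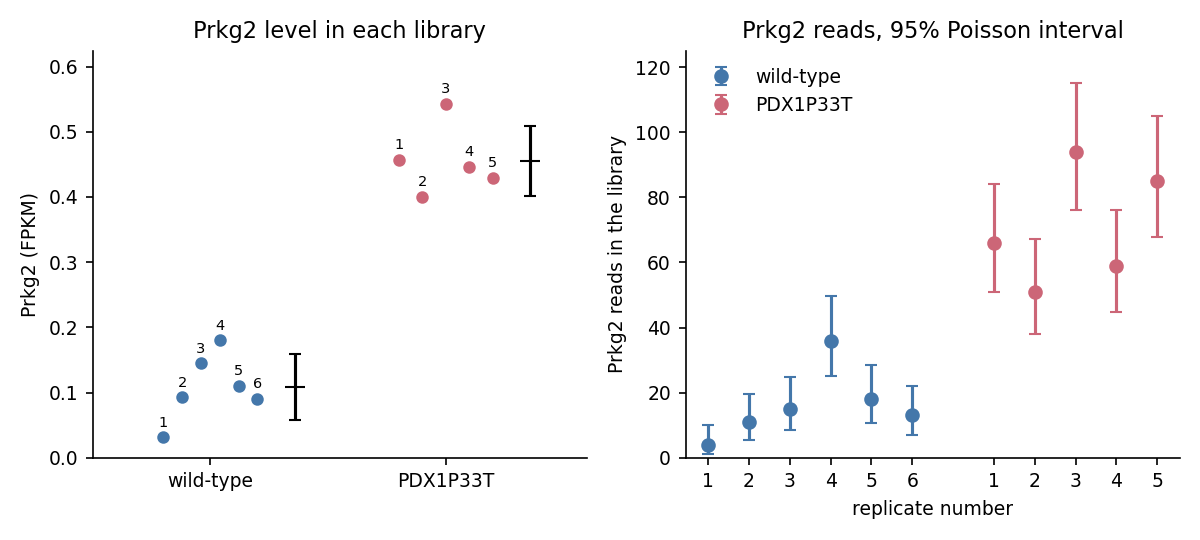
*Prkg2* in each library, as FPKM on the left (numbers are replicates, bars to the right of the points are mean ± SD of 6 wild-type and 5 PDX1P33T libraries) and as reads on the right (bars are exact 95% Poisson intervals, which cover counting error only). The 5 PDX1P33T libraries held 51 to 94 reads and the 6 wild-type libraries 4 to 36.

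These levels rest on few reads. The PDX1P33T libraries held 66, 51, 94, 59 and 85 reads of *Prkg2* in replicates 1 to 5, and the wild-type libraries held 4, 11, 15, 36, 18 and 13 in replicates 1 to 6. Summed over a genotype, 355 of 144366064 reads were of *Prkg2* in PDX1P33T (24.6 per 10000000 reads) and 97 of 158850509 in wild-type (6.11 per 10000000 reads). The smallest count, 4 reads in wild-type replicate 1, has an exact 95% Poisson interval of 1.09 to 10.2 reads, and the largest wild-type count, 36 reads, has one of 25.2 to 49.8, which for counting error alone sets these libraries apart. Wild-type replicate 4 was also the deepest library, and its rate was 9.7 reads per 10000000, against 21.5 in the PDX1P33T library with the lowest rate. The PDX1P33T libraries were close to each other, with a coefficient of variation of 11.7% and the highest level 1.36 times the lowest. The wild-type libraries were spread more widely, at 46.9% and 5.66 times.

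As background for the contrast that chose *Prkg2*, limma called 2 of 1672 genes with wild-type rows known from their reads higher in PDX1P33T (0.12%), *Pigr* and *Prkg2* itself, and 2 lower (0.12%), *Osbpl5* and *Jpt1*. That *Prkg2* is among them is no test of it, as it was chosen from this contrast, and it was not among the higher genes under 12 of 22 other settings. These 12 include the filter on a mean of at least 1 FPKM, which leaves *Prkg2* out before any fit. With each library left out, its log2 difference stayed between 1.32 and 1.54, whether or not it was called. A call needed a change of 1.5-fold or more and an adjusted p (Benjamini-Hochberg) no higher than 0.05. Of the same 1672 genes, 103 (6.16%) had every PDX1P33T library above every wild-type library. These genes come from a table that the study sorted by its own test on these libraries, so the shares are not those of an unselected set, and nothing about *Prkg2* is read from them.

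By level in PDX1P33T islets, the 10 genes fell into 5 above 1 FPKM and 5 below. The receptor cyclases, the cGMP-specific phosphodiesterase *Pde5a* and the soluble cyclase subunit *Gucy1b1* were the higher ones, and both kinases were among the lower ones. *Npr1*, the receptor of atrial and B-type natriuretic peptide, came first at 5.644 ± 1.175 FPKM (SD, n = 5) and was above 71.8% of the 18963 genes with a value above 0. *Pde5a* followed at 4.846 ± 0.3047 FPKM (SD, n = 5), and its range of 4.475 to 5.144 FPKM lay within that of *Npr1*, 3.859 to 7.139 FPKM.

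Next in the order were *Gucy2c*, the guanylin receptor known from intestinal epithelium, at 3.487 ± 0.7469 FPKM (SD, n = 5) and *Npr2*, the receptor of C-type natriuretic peptide, at 2.501 ± 0.4468 FPKM (SD, n = 5). *Gucy1b1*, the beta subunit of soluble guanylyl cyclase, was at 1.855 ± 0.1594 FPKM (SD, n = 5). The libraries of *Pde5a* did not overlap with those of *Gucy2c*, whereas *Gucy2c* overlapped with *Npr2* and *Npr2* with *Gucy1b1*, so the ranges of these neighbours over the libraries do not set them apart, although within each of the 5 libraries *Gucy2c* was above *Npr2* and *Npr2* above *Gucy1b1*. *Gucy2c* ranged from 2.224 to 4.077 FPKM and *Npr2* from 1.932 to 2.964 FPKM.

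*Gucy1a1*, the alpha subunit that pairs with the *Gucy1b1* product, was at 0.4554 ± 0.1209 FPKM (SD, n = 5), and its highest library, 0.6407 FPKM, lay below the lowest of *Gucy1b1*, 1.738 FPKM. *Prkg2* was at the same mean as *Gucy1a1* to 3 digits and was above 30.8% of genes. *Pde1c*, a phosphodiesterase that is activated by calcium and calmodulin, was at 0.3675 ± 0.05518 FPKM (SD, n = 5), with a range of 0.3113 to 0.4271 FPKM that overlapped with that of *Prkg2*. *Prkg1* was at 0.2043 ± 0.02948 FPKM (SD, n = 5). It ranged from 0.1629 to 0.2286 FPKM, below every library of *Pde1c* and of *Prkg2*. In PDX1P33T islets the FPKM of *Prkg2* was therefore above that of *Prkg1* in each library, but its reads were not. *Prkg1* held 66, 48, 58, 61 and 93 reads in replicates 1 to 5, against 66, 51, 94, 59 and 85 of *Prkg2*. The order in FPKM thus rests largely on the recovered gene lengths, 11036 bases for *Prkg1* and 5369 for *Prkg2*. The lengths of the transcripts present in islets are not known from these data. The wild-type row of *Prkg1* was not identified, so the order of the kinases in wild-type islets is not analysed here.

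*Pde9a*, a phosphodiesterase with high affinity for cGMP, was at the limit of detection. Its libraries held 3, 0, 2, 1 and 5 reads in PDX1P33T replicates 1 to 5, or 0 to 0.03834 FPKM. Only 1.87% of the 18963 genes with a value above 0 were lower, and genes listed at 0 are not in this share.

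**Figure D2:**
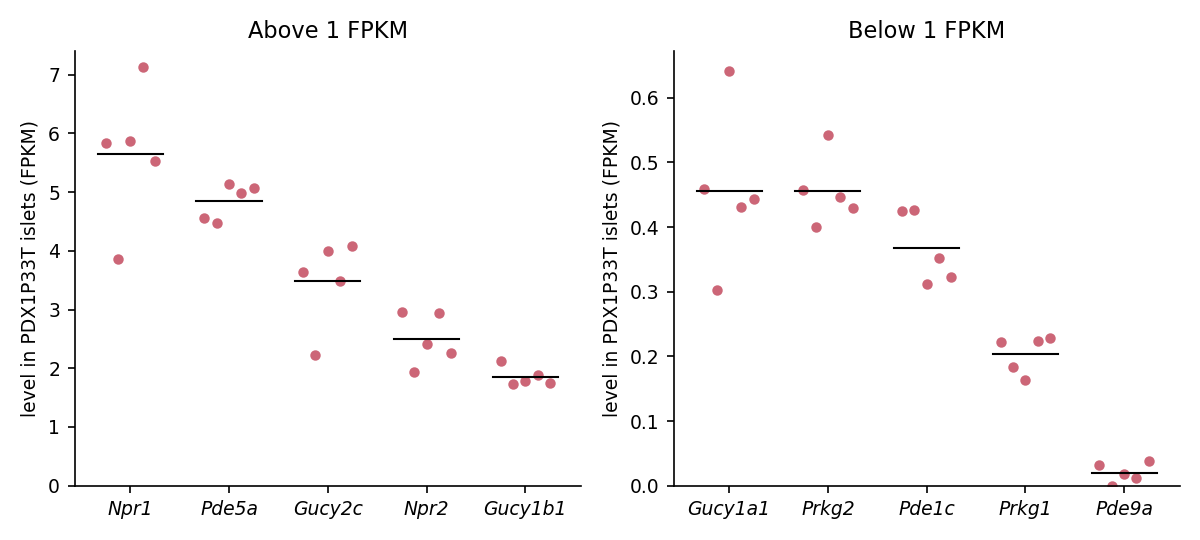
Levels of the 10 genes in the 5 PDX1P33T libraries in FPKM (points, replicates 1 to 5 from left to right; lines are means), with a separate linear axis for the genes above and below 1 FPKM. Means fall from 5.644 FPKM in *Npr1* to 0.01977 FPKM in *Pde9a*. *Prkg2* lies above *Prkg1* in FPKM, which is scaled to gene length, though not in reads.

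The 10 genes did not vary in the same way among the PDX1P33T libraries. PDX1P33T replicate 2 was the lowest library for 8 of the 10 genes, the exceptions being *Prkg1* and *Pde1c*, which were lowest in replicate 3. One of the 8 was *Pde9a*, with 0 reads in replicate 2. Among genes above 0 in every PDX1P33T library, replicate 2 was the lowest for 7 of the 9 that remain here and for 33.3% of all 17600. *Npr1* read 3.859 FPKM in replicate 2 and 5.832, 5.866, 7.139 and 5.524 FPKM in replicates 1, 3, 4 and 5, and *Gucy2c* read 2.224 FPKM in replicate 2 and 3.645, 4.002, 3.487 and 4.077 FPKM in the same others. Both genes had their lowest value in replicate 2. *Pde5a* hardly moved, from 4.475 FPKM in replicate 2 to 5.144 FPKM in replicate 3.

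Replicate 2 also stood apart in its markers. The 6 endothelial markers summed to 127 FPKM there and to 174.4 to 229.6 FPKM in the other PDX1P33T libraries, and *Esm1* was the most abundant of them. The 7 acinar markers in the table summed to 109.7 FPKM in replicate 2 and to 10.59 to 21.24 FPKM in the others, with *Ctrb1* as the most abundant, and the sum of *Ins1* and *Ins2* was highest there, at 276600 FPKM against 206900 to 260900 FPKM. The other beta cell markers went both ways. *Iapp* and *Pdx1* were also highest in replicate 2, at 56330 and 80 FPKM. *Mafa*, *Nkx6-1* and *Ucn3* were lowest there, at 202.6, 87.18 and 514 FPKM, and *Slc2a2* was neither. None of the acinar or endothelial markers in the table was at 0 in all libraries. The part of these differences in the low values of replicate 2 was not tested. Without that library the mean of *Npr1* was 6.09 FPKM and that of *Gucy2c* 3.803 FPKM.

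Between the genotypes, the receptor and soluble cyclases with an identified wild-type row differed by less than the spread between libraries. *Npr1* had 5.393 ± 0.4385 FPKM (SD, n = 6) in wild-type against 5.644 ± 1.175 FPKM (SD, n = 5) in PDX1P33T, and the wild-type libraries read 5.347, 5.815, 6.03, 5.067, 4.922 and 5.177 FPKM in replicates 1 to 6. The wild-type values lay inside the range of the PDX1P33T libraries. The log2 difference, PDX1P33T minus wild-type, was 0.04 (SE 0.13, 95% interval -0.24 to 0.33), with an adjusted p of 1 in limma with Benjamini-Hochberg adjustment. This difference was -0.05 without PDX1P33T replicate 4, on which its sign thus rests, and 0.17 without PDX1P33T replicate 2. The two-sided exact permutation test of the libraries' genotype labels, whose smallest p is 0.0022, gave p = 0.768 for *Npr1*.

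*Gucy2c* had 3.967, 2.97, 2.655, 4.113, 3.875 and 4.501 FPKM in wild-type replicates 1 to 6, or 3.68 ± 0.7123 FPKM (SD, n = 6), against 3.487 ± 0.7469 FPKM (SD, n = 5) in PDX1P33T. The groups overlapped over most of their range, and the log2 difference was -0.08 (SE 0.17, 95% interval -0.46 to 0.30; exact permutation p = 0.686, limma adjusted p = 1). Without PDX1P33T replicate 2 it was 0.07, so its sign rests on that library.

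*Gucy1b1* had 1.825, 2.372, 2.439, 1.908, 2.146 and 1.385 FPKM in wild-type replicates 1 to 6, a mean of 2.013 ± 0.3922 FPKM (SD, n = 6), and every PDX1P33T library lay inside this range. Its log2 difference was -0.09 (SE 0.14, 95% interval -0.39 to 0.21; exact permutation p = 0.506, limma adjusted p = 1). The rows of *Npr1*, *Gucy2c* and *Gucy1b1* were identified by gene length and a level within 2-fold, a limit chosen after the values were seen. A change above 2-fold could not be found for these 3 genes in this way.

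For *Npr2* and *Pde5a* the wild-type row could not be settled. *Npr2* shares its length of 4667 bases with *Fam76b*, which is of similar level, and 2 wild-type rows of that length could hold its values. In the row with 3.059 ± 0.5333 FPKM (SD, n = 6) *Npr2* would differ by -0.28 on the log2 scale (SE 0.14, exact permutation p = 0.0974, limma adjusted p = 0.602). In the row with 1.581 ± 0.2138 FPKM (SD, n = 6) it would differ by 0.62 (SE 0.13, exact permutation p = 0.00216, limma adjusted p = 0.377). The direction of *Npr2* is thus not known. *Pde5a* shares its length of 9831 bases with *Gsk3b* and 1 wild-type row with it, of 5.28 ± 0.8743 FPKM (SD, n = 6). If that row is of *Pde5a*, its log2 difference would be -0.11 (SE 0.12, exact permutation p = 0.407, limma adjusted p = 1). Wild-type rows of *Gucy1a1*, *Prkg1*, *Pde1c* and *Pde9a* were not identified.

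**Figure D3:**
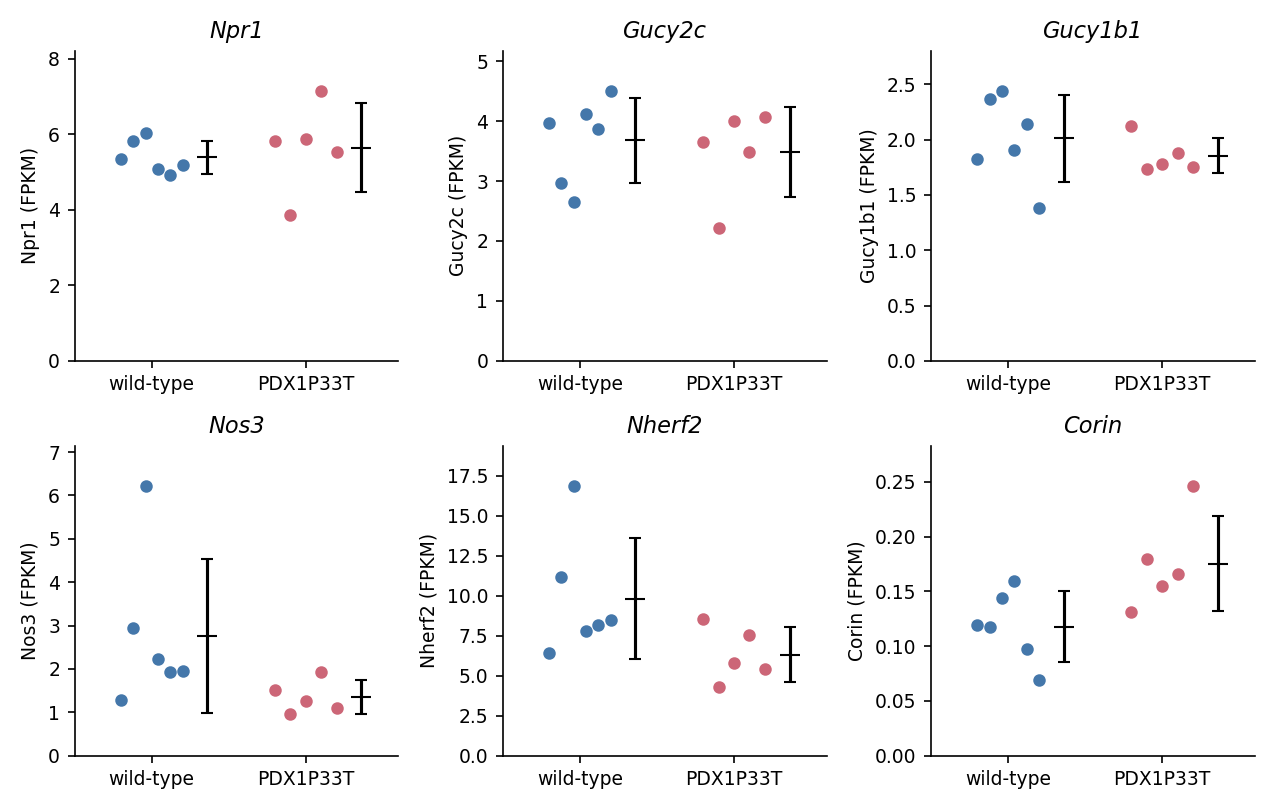
FPKM of 6 cyclic GMP genes in each wild-type (blue, n = 6) and PDX1P33T (red, n = 5) library, replicates in order from left to right, with mean ± SD beside the points and each axis starting at 0. *Npr1*, *Gucy2c* and *Gucy1b1* overlap widely, and in *Nos3* and *Nherf2* wild-type replicate 3 is the highest library, at 6.216 and 16.87 FPKM.

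The wider pathway was followed with a list of 64 genes in 9 groups, of which 48 were in the table and 41 were above 0 in every PDX1P33T library. Besides *Prkg2*, 15 genes had an identified wild-type row. Of these 15, limma called 0 higher and 0 lower in PDX1P33T after Benjamini-Hochberg adjustment, against 0.0414% of all 7246 genes with an identified row called higher and 0.0414% called lower, and limma with voom weights on the recovered reads also called 0. Save for *Nos3* and *Nherf2*, whose rows are known from their reads, a row was accepted only at a level within 4-fold of PDX1P33T, or within 2-fold for *Npr1*, *Gucy2c*, *Gucy1b1*, *Corin* and *Abcc4*, so the count cannot speak of larger changes. An unadjusted p below 0.05 was seen for 3 of the 15 genes, *Nos3*, *Nherf2* and *Corin*, where 24.7% of all genes compared had one. The rows of *Nos3* and *Nherf2* were known only because both are in the table that the study sorted by its own test on these libraries, and of the 1672 genes compared from it 87.2% had an unadjusted p below 0.05, so the p-values of these genes are not independent of that choice. The median log2 difference of the 15 genes was 0.04, and that of all 7246 genes was -0.04.

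Among the sources of ligand, the natriuretic peptide genes *Nppa*, *Nppb* and *Nppc* and the uroguanylin gene *Guca2b* were not analysed here. *Guca2a*, which encodes guanylin, a ligand of the *Gucy2c* product, was at 0.6703 ± 0.5076 FPKM (SD, n = 5) in PDX1P33T and ranged from 3 to 24 reads. *Furin*, a protease that cuts many prohormones, had 7.774 ± 0.4585 FPKM (SD, n = 6) in wild-type against 8.362 ± 0.5303 FPKM (SD, n = 5) in PDX1P33T, a log2 difference of 0.10 (SE 0.07, exact permutation p = 0.0823, limma adjusted p = 1). *Corin*, the protease that activates pro-atrial natriuretic peptide, was low in both genotypes.

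*Corin* held 10 to 32 reads in a wild-type library and 19 to 49 in a PDX1P33T library. Its level was 0.1178 ± 0.0322 FPKM (SD, n = 6) in wild-type against 0.1754 ± 0.04336 FPKM (SD, n = 5) in PDX1P33T, and 3 of 5 PDX1P33T libraries lay above the highest wild-type library. The log2 difference was 0.34 (SE 0.15, exact permutation p = 0.026) with an adjusted p of 0.534 in limma, so *Corin* was not called. The pseudocount is close to its wild-type level, and the log2 difference was 0.07 with a pseudocount of 1, 0.55 with 0.01 and 0.59 with voom weights.

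*Nos3*, the endothelial nitric oxide synthase, which supplies the gas that activates soluble guanylyl cyclase, was the only synthase above 1 FPKM in PDX1P33T islets. It was at 1.353 ± 0.3816 FPKM (SD, n = 5), against 0.06043 FPKM for *Nos1* and 0.06168 FPKM for *Nos2*. In wild-type it read 1.277, 2.955, 6.216, 2.231, 1.928 and 1.952 FPKM in replicates 1 to 6, and in PDX1P33T 1.503, 0.9688, 1.253, 1.936 and 1.103 FPKM in replicates 1 to 5. Wild-type replicate 3 was far above the others and the groups overlapped. The log2 difference was -0.83 (SE 0.32, exact permutation p = 0.0303), but it was not called, with an adjusted p of 0.494 in limma, and it was -0.57 without wild-type replicate 3. Like 87.2% of the genes of the sorted table, it had a low unadjusted p, and nothing further is read from it.

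*Nherf2*, which encodes a PDZ scaffold known to anchor PKG2 at the membrane, read 6.454, 11.19, 16.87, 7.784, 8.2 and 8.493 FPKM in wild-type replicates 1 to 6 and 8.56, 4.3, 5.777, 7.565 and 5.433 FPKM in PDX1P33T replicates 1 to 5. Again wild-type replicate 3 was the highest, and 3 of 5 PDX1P33T libraries lay below the lowest wild-type library. The log2 difference was -0.60 (SE 0.24, exact permutation p = 0.0455), with an adjusted p of 0.504 in limma. It came from the same sorted table as *Nos3*. Without wild-type replicate 3 it was -0.43.

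Endothelial markers were high in the same library, wild-type replicate 3, but not in wild-type replicate 2, which was next highest for both genes and had 14.87 FPKM of *Cdh5*. *Cdh5* was at 62.67 FPKM in wild-type replicate 3 and at 11.95 to 27.32 FPKM in the other wild-type libraries, against 9.093 to 22.39 FPKM in PDX1P33T, with a log2 difference of -0.60 (SE 0.37, limma adjusted p = 0.949). Of the 6 endothelial markers, 4 had an identified wild-type row, 0 were called by limma after Benjamini-Hochberg adjustment, and their median log2 difference was -0.63. The ratio of *Nos3* to *Cdh5* was 0.109 ± 0.0461 (SD, n = 6) in wild-type and 0.0853 ± 0.0137 (SD, n = 5) in PDX1P33T, and that of *Nherf2* to *Cdh5* was 0.424 ± 0.186 (SD, n = 6) and 0.397 ± 0.0492 (SD, n = 5). Both ratios overlapped between the genotypes. The ratio of *Npr1* to *Cdh5* was 0.257 ± 0.134 (SD, n = 6) in wild-type and 0.361 ± 0.0627 (SD, n = 5) in PDX1P33T, and that of *Gucy1b1* to *Cdh5* was 0.0954 ± 0.0506 (SD, n = 6) and 0.124 ± 0.0409 (SD, n = 5). These means lay in the other direction, and these ratios overlapped as well. *Npr1* was not set apart in wild-type replicate 3 as these genes were, with 6.03 FPKM there and 4.922 to 5.815 FPKM in the remaining wild-type libraries. Markers of smooth muscle and pericytes had a median log2 difference of -0.78 over 4 genes and those of macrophages one of -0.58 over 4, while fibroblast markers had -0.61 over 3 and Schwann and glial markers -0.56 over 3, and none of these was called. Beta cell markers had a median of 0.15 over 4 genes, alpha cell markers -0.08 over 2 and PP cell markers -0.45 over 2. The 1 delta cell marker compared, *Sst*, had -0.32 and the 1 duct marker compared, *Krt7*, 0.14, and none of these was called either. Only markers with an identified wild-type row enter these medians. All 7246 genes compared had a median of -0.04, but the 1672 from the table sorted by the study's test had -0.32. Markers placed through that table share its selection, so -0.04 alone is not a matched background for them. By library, *Pdgfrb*, a pericyte marker, was at 9.321 and 13.7 FPKM in wild-type replicates 2 and 3 and at 2.46 to 4.87 FPKM in the other wild-type libraries, and the macrophage marker *Cd68* was at 44.07 and 45.03 FPKM against 17.55 to 24.91 FPKM. These markers were thus high in the 2 libraries in which *Nos3*, *Nherf2* and *Trpc6* were highest. The part of any of these cells in the differences was not tested.

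**Figure D4:**
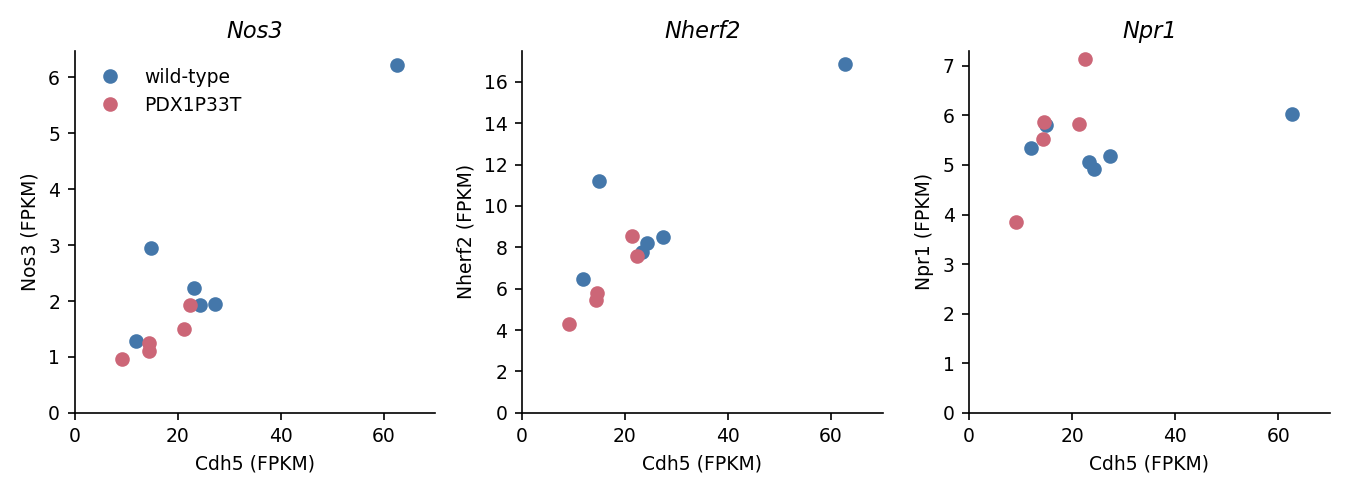
FPKM of *Nos3*, *Nherf2* and *Npr1* against that of the endothelial marker *Cdh5* in each wild-type (blue, n = 6) and PDX1P33T (red, n = 5) library. The point on the far right of each panel, at 62.67 FPKM of *Cdh5*, is wild-type replicate 3.

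The phosphodiesterase group was led in PDX1P33T by *Pde6d*, at 15.02 ± 2.011 FPKM (SD, n = 5), whose product is a prenyl-binding subunit without catalytic activity, and by *Pde3b*, a cGMP-inhibited cAMP phosphodiesterase, at 8.997 ± 1.86 FPKM (SD, n = 5). *Pde5a* came next, and the other 8 of the 11 genes in the table were below 1 FPKM. *Pde10a*, which hydrolyses both cyclic nucleotides, was the only one of the group with an identified wild-type row. It had 0.4835 ± 0.1551 FPKM (SD, n = 6) in wild-type against 0.5297 ± 0.06828 FPKM (SD, n = 5) in PDX1P33T, a log2 difference of 0.15 (SE 0.19, 95% interval -0.27 to 0.57; exact permutation p = 0.457, limma adjusted p = 1), and of 0.03 without wild-type replicate 3.

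In the other groups, *Gucy2e*, a receptor cyclase known from the retina, was at 0.3218 ± 0.06345 FPKM (SD, n = 5) in PDX1P33T and 0.2927 ± 0.06379 FPKM (SD, n = 6) in wild-type, and the clearance receptor gene *Npr3* was at 0.08777 ± 0.03427 FPKM (SD, n = 5) in PDX1P33T. The cyclic nucleotide-gated channel genes in the table, 4 of the 6 listed, each had a mean below 0.1 FPKM in PDX1P33T.

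The kinase substrates were led in PDX1P33T by *Vasp*, a regulator of actin, at 12.01 ± 0.8734 FPKM (SD, n = 5), followed by *Nherf2*, by *Rgs2*, which speeds up the shut-off of G proteins, at 5.947 ± 0.9368 FPKM (SD, n = 5), and by *Gsk3b*, a kinase of glycogen and Wnt signalling, at 4.999 ± 0.3 FPKM (SD, n = 5). The gene of the PKG1 substrate *Irag1* was listed at 0 in every PDX1P33T library.

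Of the substrates with an identified row besides *Nherf2*, the inositol trisphosphate receptor gene *Itpr1* had a log2 difference of 0.19 (SE 0.10), the transcription factor gene *Creb1* 0.11 (SE 0.09), the potassium channel gene *Kcnma1* -0.12 (SE 0.10) and the cation channel gene *Trpc6* -0.44 (SE 0.37), and none was called by limma. The log2 differences of *Creb1* and *Kcnma1* were 0.049 and -0.065 without PDX1P33T replicate 2. *Trpc6* was at 1.175 FPKM in wild-type replicate 3 and at 0.1186 to 0.6338 FPKM in the other wild-type libraries, so that library was again the highest, and without it the log2 difference of *Trpc6* was -0.15.

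Both export pumps for cGMP were expressed. *Abcc4* had 5.246 ± 0.5154 FPKM (SD, n = 6) in wild-type against 5.511 ± 0.7847 FPKM (SD, n = 5) in PDX1P33T, a log2 difference of 0.06 (SE 0.11, exact permutation p = 0.552, limma adjusted p = 1). This difference was -0.003 without PDX1P33T replicate 5, so its sign rests on that library. *Abcc5* had 2.497 ± 0.09981 FPKM (SD, n = 6) in wild-type against 2.285 ± 0.148 FPKM (SD, n = 5) in PDX1P33T, and 3 of 5 PDX1P33T libraries lay below the lowest wild-type library. Its log2 difference was -0.12 (SE 0.08, exact permutation p = 0.00866), well under 1.5-fold, and it was not called by limma, with an adjusted p of 0.957.

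**Figure D5:**
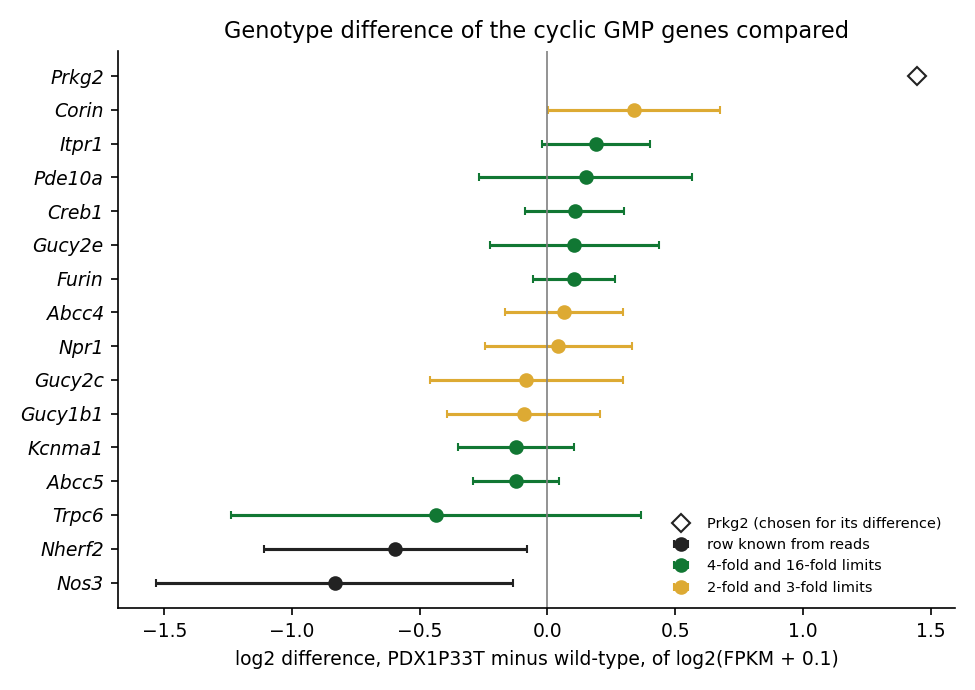
Log2 difference, PDX1P33T minus wild-type on the log2(FPKM + 0.1) scale, of the 15 pathway genes compared, with 95% intervals from limma, coloured by how the wild-type row was identified, and *Prkg2* as an open diamond without an interval. The values of the 15 genes run from -0.83 in *Nos3* to 0.34 in *Corin*, and *Prkg2* is at 1.45.

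Genes with a pattern like that of *Prkg2* were ranked by Pearson's r of log2(FPKM + 0.1) over the 11 libraries, among 1539 genes with rows known from their reads and a mean of at least 20 reads. The 5 most alike were *Scn3a* (r = 0.916), *Tspan15* (r = 0.903), *Pigr* (r = 0.902), *Trim25* (r = 0.858) and *Tmeff1* (r = 0.853). *Scn3a*, a voltage-gated sodium channel gene, had a mean of 0.3289 FPKM in wild-type and 0.5401 FPKM in PDX1P33T, and *Pigr*, the gene of the polymeric immunoglobulin receptor, had means of 2.02 and 5.15 FPKM. The 11 points share the genotype difference by which *Prkg2* was chosen, so these values are a description only. With the mean of each genotype subtracted, the 5 most alike were *Rassf2* (r = 0.836), *Tctn1* (r = 0.836), *Purb* (r = 0.829), *4930502E18Rik* (r = 0.797) and *P2ry2* (r = 0.785). Within a genotype the likeness thus fell to other genes, and each of these 5 had a lower mean in PDX1P33T than in wild-type, as 57.3% of the 1539 genes ranked did, from 13.73 to 8.104 FPKM in *Purb* and from 0.3065 to 0.168 FPKM in *P2ry2*.

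The genes next to *Prkg2* on its chromosome were looked up in GENCODE vM21, by name only, since that annotation is of another genome build than the table. Of 11 protein-coding genes within 1 Mb, 7 were in the table and 2 had an identified wild-type row. *Rasgef1b*, an exchange factor gene for small GTPases, had 1.515 ± 0.5176 FPKM (SD, n = 6) in wild-type against 0.8653 ± 0.09154 FPKM (SD, n = 5) in PDX1P33T, a log2 difference of -0.69 (SE 0.20, exact permutation p = 0.0108, limma adjusted p = 0.492). *Antxr2*, an anthrax toxin receptor gene, had 0.4219 ± 0.2565 FPKM (SD, n = 6) in wild-type against 0.2765 ± 0.0754 FPKM (SD, n = 5) in PDX1P33T, a log2 difference of -0.37 (SE 0.28, exact permutation p = 0.286, limma adjusted p = 1). Neither was called. *Rasgef1b* was compared through the table sorted by the study's test, in which 87.2% of genes had an unadjusted p below 0.05, so its p is not independent of that choice. In PDX1P33T *Bmp3*, a bone morphogenetic protein gene, was at 1.089 ± 0.1515 FPKM (SD, n = 5) and *Hnrnpd*, an RNA-binding protein gene, at 8.826 ± 0.7731 FPKM (SD, n = 5). *Hnrnpdl*, a relative of *Hnrnpd*, was at 16.4 ± 2.027 FPKM (SD, n = 5) and *Vamp9* was at 0.2097 ± 0.1168 FPKM (SD, n = 5). *Fgf5* was listed at 0, which as for *Irag1* need not mean absence. *Prdm8*, *Cfap299*, *Gm11111* and *4930524J08Rik* were not analysed here.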

How the data were processed

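Per the labels and methods, bulk RNA of whole islets was trimmed, aligned and counted per gene by the authors, who deposited FPKM. The submitters' processing notes name fastp 0.23.1, HISAT2 2.0.5, featureCounts 1.5.0-p3, DESeq2 1.20.0 and the build GRCm39. Whether counting used strand is not stated, so genes that overlap others are uncertain. The members and lists were chosen with earlier results of these data known.

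Library totals and gene lengths were recovered from the steps that single reads leave in FPKM, and 98.3% of 1672 known lengths came out right. Wild-type values were moved to their genes by the wild-type reads of a supplementary table (1711 genes, of which *Prkg2* needed no move) or by equal recovered length with at least 100 reads in each genotype, levels within 4-fold and no other candidate within 16-fold (3398 genes). A rule added after the values were seen, within 2-fold and no other candidate within 3-fold, gave 2176 more, among them *Npr1*, *Gucy2c*, *Gucy1b1*, *Corin* and *Abcc4*. Tried blind on genes of the supplementary table, the rules were right for 402 of 402 and 675 of 675 genes, a check that cannot see genes whose true row is missing.

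limma 3.58.1 (R 4.3.3, trend and robust) was fitted to log2(FPKM + 0.1) of 5070 genes, or 7246 with the added rule, with 39 left out that were at 0 in every PDX1P33T library. Adjusted p-values (Benjamini-Hochberg) were taken over all 19329 gene IDs, with genes not placed counted as unchanged, and calls needed an adjusted p of at most 0.05 and 1.5-fold. On simulated reads of 5070 genes at a dispersion of 0.07, the fit found 62% of changes of 1 on the log2 scale and 98.5% of 1.5. That dispersion was set alike for all genes, libraries were drawn independently, and changes were placed only in genes above a floor of reads. These shares therefore need not hold for genes with few reads or for genes that vary more between libraries. Single genes, save *Prkg2*, were also tested by the exact permutation test. Pairs of libraries of a genotype differed by 6.86 to 427 chi-square units per gene, so none was counted as a repeat. PDX1P33T replicates 3 and 5 (6.86) and wild-type replicates 4 and 5 (7.76) were far closer than any other pair, the next lowest being 33.6 and 56.7. Whether these libraries are independent of each other cannot be told from the labels, and n, SD, SE and p count them as such. For a gene of 1 kb, 1 read amounts to between 0.027 FPKM (largest library) and 0.0518 FPKM (smallest). Named were the 10 members, every called gene of the pathway lists and up to 4 of the highest genes of each pathway group, the 5 genes most like *Prkg2* and its neighbours, and *Irag1*, *Npr3*, *Pde10a*, *Itpr1*, *Creb1*, *Kcnma1* and *Trpc6* after their values were seen. *Mrvi1* is the name of *Irag1* and *Slc9a3r2* that of *Nherf2* in the annotation used for names. Columns of the authors' own fold changes and p-values were not used. Alternatives were other pseudocounts, rescaling, a filter on low levels, voom weights on recovered reads, a replicate block, other limits for rows and leaving out each library.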

Additional observations from a re-analysis of the deposited data

Results flagged for a closer look

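Of 38 sets of libraries of one gene in one genotype, 2 held a library set far apart from the rest, and chance flags about 1 in 20 such sets. *Nos3* was at 6.216 FPKM in wild-type replicate 3, against 1.277 to 2.955 FPKM in the other 5 wild-type libraries, a gap of 0.66 of the whole range, and the same library was the highest for *Nherf2*, *Trpc6* and *Cdh5*. *Kcnma1*, the gene of a calcium-activated potassium channel and PKG1 substrate, was at 1.556 FPKM in PDX1P33T replicate 2, against 1.899 to 1.967 FPKM in the other 4, a gap of 0.835 of the range.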

How the results depend on the processing

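The log2 difference of *Prkg2* was 1.45. It was 0.39 with a pseudocount of 1, 2.11 with 0.01 and 2.15 with voom weights, and between 1.32 and 1.54 with each library left out. Every PDX1P33T library lay above every wild-type library in the gene chosen for this difference. Its sign could thus not change with the pseudocount or a left-out library, and only the size is described. Of 286 values of the other 15 genes under the alternatives, 283 kept their sign and 0 became called. The 3 that changed sign were *Gucy2c* (0.066 without PDX1P33T replicate 2), *Npr1* (-0.048 without PDX1P33T replicate 4) and *Abcc4* (-0.003 without PDX1P33T replicate 5). With each library left out *Gucy2c* ranged from -0.17 to 0.07, *Npr1* from -0.05 to 0.17 and *Abcc4* from -0.003 to 0.11.

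Calls among the 1672 genes, 2 higher and 2 lower, moved with most settings. Higher calls fell to 1, *Pigr*, with a pseudocount of 1, of 0.01 and with a mean of at least 1 FPKM, and ranged from 1 to 3 with each library left out. The filter on the mean leaves *Prkg2* out before the fit. Lower calls fell to 1 with a pseudocount of 1, of 0.01, with a mean of at least 1 FPKM, with rescaling and with rows within 2-fold and 8-fold, and ranged from 1 to 4 with each library left out. The numbers of the replicates did not pair the samples, since the correlation of same-numbered libraries ran from -0.593 to 0.113 by title and to 0.122 by library name. With a replicate block by title there were 0 higher calls and 1 lower call, and with a replicate block by library name 1 and 1. *Osbpl5* was called lower under every setting run and *Pigr* higher under all but the block by title. The cause of the other moves was not tested.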
